A study of Mus musculus with 4 samples.

Results

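The genes of vascular endothelial growth factor (VEGF) signalling were followed in ZHBTc4 cells, a line of mouse embryonic stem cells that depends on a transgene for its Oct4 (Pou5f1), the transcription factor that maintains pluripotency. Doxycycline silences that transgene. The 9 genes were taken from the array annotation by name: the ligands Vegfa, Vegfb, Vegfc and Pgf, the receptors Flt1, Kdr and Flt4, and the co-receptors Nrp1 and Nrp2. They are 9 of the 27671 gene names on the array, and 20 of its 41174 probes, with 47 spots on each array, carry one of these names. The set was chosen by the log2 ratios of doxycycline-treated cells to the reference, in which Vegfc was known to fall deeply. Those ratios are therefore given as a description, without a test.

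The series holds 4 two-colour Agilent arrays. On each of them the Cy5 channel carried treated cells, and the Cy3 channel carried the reference, ZHBTc4 cells for which the labels name no treatment. The group called dox here, which the sample titles call the control, received 2 µg of doxycycline for 48 h. The group called dox+TCP received the same doxycycline together with TCP. The labels do not spell out TCP. The series title is about the histone demethylase LSD1 in differentiating embryonic stem cells, and in that field TCP usually means tranylcypromine, which inhibits LSD1. Each group has 2 biological replicates according to the labels. All treated cells had been moved off irradiated embryonic fibroblasts and kept for 2 passages on gelatin. The data come from a single line, and the dyes were never swapped, so a dye effect cannot be told apart from a difference between treated and reference cells. It cancels in the comparison of dox+TCP with dox as far as it was the same on every array, which was not tested.

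VEGF proteins are secreted dimers best known for building blood and lymphatic vessels. Vegfa binds the receptor tyrosine kinases Flt1 and Kdr, Vegfb and Pgf bind Flt1, and Vegfc binds Flt4 and, once fully cleaved, Kdr. Kdr carries most of the growth signal to endothelial cells, Flt1 largely holds ligand back, and Flt4 serves the lymphatic endothelium. Nrp1 and Nrp2 lack a kinase; they present VEGF to these receptors and also bind class 3 semaphorins. In the early embryo Kdr marks the mesoderm that gives rise to blood and vessels, and Pgf and Flt1 are well known from trophoblast and placenta.

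Values are log2 ratios of Cy5 over Cy3 after correction for background and dye, so that 0 means equal signal and a positive value means a higher signal in the treated cells. Group means carry the standard error (SE) of limma, a linear model whose spread was shared by all 4 arrays. A gene was called where its p-value, adjusted over the 21411 genes tested by the method of Benjamini and Hochberg, was under 0.05. With 2 arrays per group the precision is limited by their number: the median SE of a group mean was 0.11 over all genes. The median signal was 213 to 249 in Cy5 and 108 to 141 in Cy3, between 68.8% and 78.1% of spots were marked well above background, and none was saturated. Both replicate 1 arrays shared a slide, while dox replicate 2 and dox+TCP replicate 2 each had a slide of their own, the latter scanned on another day. Over all genes the ratios of the dox replicates correlated at 0.66 and those of the dox+TCP replicates at 0.86, against 0.88 for the pair on the shared slide. Across groups and slides, dox replicate 1 correlated at 0.69 with dox+TCP replicate 2. Dox replicate 2 correlated at 0.79 and 0.81 with dox+TCP replicates 1 and 2, above its correlation with dox replicate 1.

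The shut-off gene behaved as its labels say. Pou5f1 had log2 ratios of -3.38 and -3.62 on the dox arrays and -3.29 and -3.28 on the dox+TCP arrays. Among 17 measured markers of pluripotent cells, 10 were called lower and 1 higher with dox+TCP, against 8.09% and 7.31% of all genes. The median of 19 measured trophoblast markers was 2.65 on dox replicate 1 and 1.97 on dox+TCP replicate 1, but 0.56 and 0.20 on the corresponding second replicates. The ratios of these markers thus differed between the arrays of a group. The log2 of their summed intensity was 19.30 and 19.06 with dox and 18.70 and 18.91 with dox+TCP. In the references it ran from 15.76 to 18.11, so the reference level also differed between arrays. The part of these differences in the values below was not tested.

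**Figure D1:**
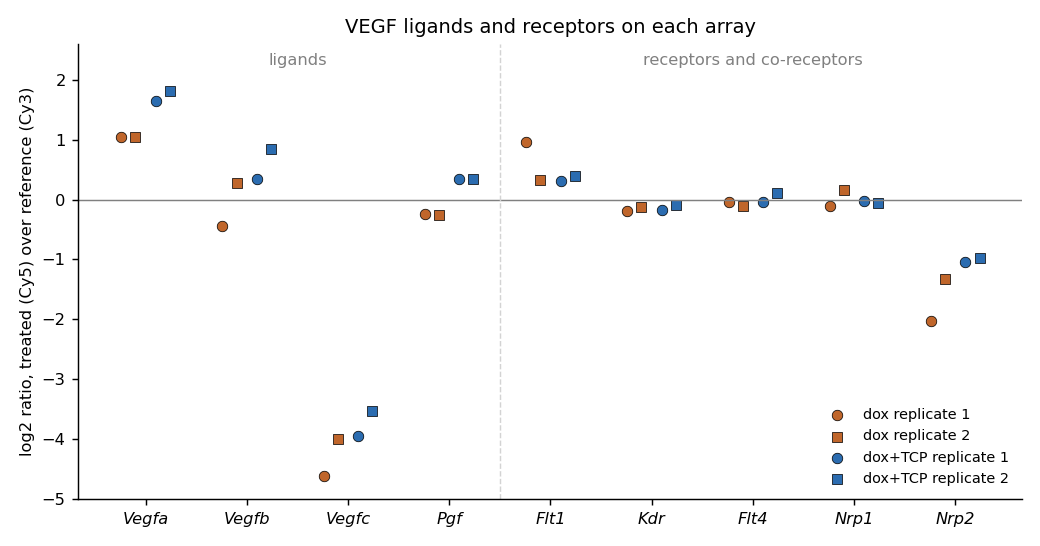
Log2 ratio of treated (Cy5) over reference (Cy3) signal for the 9 VEGF genes on each of the 4 arrays; each point is 1 array, orange for dox and blue for dox+TCP, with circles for replicate 1 and squares for replicate 2. Vegfc lies between -4.61 and -3.53, Nrp2 between -2.03 and -0.98, and Vegfa between 1.05 and 1.81, while the 4 values of Kdr, Flt4 and Nrp1 stay within 0.19 of 0.

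Vegfc, the ligand of lymphatic growth, was far lower in treated than in reference cells on every array. The log2 ratio was -4.61 and -3.99 on the dox arrays and -3.95 and -3.53 on the dox+TCP arrays. The group means were -4.30 ± 0.21 (SE, n = 2), 19.7-fold lower, with dox and -3.74 ± 0.21 (SE, n = 2), 13.3-fold lower, with dox+TCP. Ordered from the lowest ratio of the 21411 genes, Vegfc ranked 6 in both groups, which with dox restates the choice of this gene. With dox+TCP the fall passed the test (limma, adjusted p = 0.0165). The dox+TCP arrays were hybridised against the same kind of reference as the dox arrays, so this call is not fully independent of the result for which Vegfc was chosen. In bulk RNA such a fall cannot be split into fewer cells that make a transcript and less transcript per cell, which cannot be told apart here for any of the genes.

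Each channel showed where the Vegfc ratio came from. The raw Cy3 signal of its single probe was 5399 and 2935 on the dox arrays and 5646 and 2719 on the dox+TCP arrays. The raw Cy5 signal was 481 and 424 with dox and 690 and 442 with dox+TCP. All of these spots were well above background, so the ratios rest on measured signal in both channels. Their size depends on the processing and on the arrays used. Over the alternatives the mean ran from -4.61 to -2.58 with dox and from -3.99 to -2.42 with dox+TCP. After scaling between arrays the reference level was 12.70 and 12.27 log2 units beside the dox samples and 12.76 and 12.17 beside the dox+TCP samples. The second reference of each group thus lay below the first, by 0.51 on average, and by 0.94 without the scaling between arrays. The treated level was 8.09 and 8.28 with dox and 8.81 and 8.64 with dox+TCP. Both dox+TCP samples lay above both dox samples, whose low values were known when Vegfc was chosen. The share of all genes that separate in this way in the treated channel was not counted.

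The probe for Vegfc (NM_009506) lies at chr8:52955111-52955170 on the plus strand of mm7, the build named in the array files, whose gene models are not used here. To show the regulatory DNA next to the member with the widest change, the 250 bases before the start of Vegfc (RefSeq, GRCm38.p6, chr8:54077282-54077531, plus strand) are printed 5′ to 3′, with those of Vegfa (chr17:46032378-46032627, minus strand, upstream of the first of 2 annotated starts), the member that rose. Capitals mark GC boxes, the letters GGGCGG on either strand.
Vegfc: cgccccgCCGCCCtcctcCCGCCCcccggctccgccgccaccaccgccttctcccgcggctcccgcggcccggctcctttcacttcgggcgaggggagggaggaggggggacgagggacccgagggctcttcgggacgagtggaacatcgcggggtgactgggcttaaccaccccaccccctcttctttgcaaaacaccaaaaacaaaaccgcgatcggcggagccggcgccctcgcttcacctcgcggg
Vegfa: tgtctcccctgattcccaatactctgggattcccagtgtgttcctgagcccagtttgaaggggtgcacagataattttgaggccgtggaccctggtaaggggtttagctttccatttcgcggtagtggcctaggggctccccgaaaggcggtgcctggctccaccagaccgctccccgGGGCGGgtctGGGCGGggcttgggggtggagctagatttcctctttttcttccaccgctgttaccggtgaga

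Both windows hold 2 GC boxes, near the far end for Vegfc and near the start site for Vegfa. All 9 members have at least 1 GC box in this window, from 1 in Nrp1 to 5 in Nrp2, as have 32.7% of 32851 RefSeq promoter windows of the same length. The 9 windows lie before the most upstream start of each gene, whereas the 32851 include every listed start. The share of G and C in the 9 ran from 59.2% in Vegfa to 76.4% in Vegfb and was not counted over all windows. The shares over all windows are therefore no matched comparison for the 9. The core letters ACGTG, part of the element that hypoxia-inducible factors read, occur on either strand in none of the 9 windows and in 16.6% of all windows. The variant GCGTG occurs in 6 of them (Vegfb, Pgf, Flt1, Kdr, Nrp1 and Nrp2) and in 28.2% of all windows. The octamer ATGCAAAT, a sequence that Oct proteins can bind, occurs in none of the 9 and in 1.6% of all. These are matches of letters in a short window, with no bearing on whether a factor binds there or elsewhere.

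Vegfa, the ligand that drives most vessel growth, changed the other way. Its probe with 10 spots gave log2 ratios of 1.05 and 1.05 on the dox arrays and 1.64 and 1.81 on the dox+TCP arrays. The means were 1.05 ± 0.087 (SE, n = 2), 2.07-fold higher, with dox and 1.73 ± 0.087 (SE, n = 2), 3.31-fold higher, with dox+TCP. The rise with dox+TCP passed the test (limma, adjusted p = 0.0160), and 0.794% of all genes had a higher ratio there. Spots of the probe differed by an SD of 0.025 to 0.075 within an array, which is technical spread and no measure of the spread between samples. The reference level was 9.35, 9.68, 9.42 and 9.34 log2 units on the dox and then the dox+TCP arrays, whereas the treated level was 10.39 and 10.74 with dox and 11.06 and 11.15 with dox+TCP. Both dox+TCP samples thus lay above both dox samples in the treated channel, while their references did not. How many of all genes do so in that channel was not counted.

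Of the 9 members, Vegfa was called higher and Vegfc lower with dox+TCP against the reference. Over all genes 15.4% were called, 1565 higher (7.31%) and 1732 lower (8.09%). With 9 members a count of 2 is near that share and is no result about the group as a whole. With each array centred on its median in place of the loess curve, which moved the median of all genes from 0.033 to 0.18, 4002 genes were called higher and 1107 lower. Vegfa and Vegfc kept their directions under that scaling. With 1 dox+TCP array left out the sizes stayed close: Vegfa was at 1.81 without replicate 1 and 1.64 without replicate 2, and Vegfc at -3.53 and -3.95. Those fits, with 1 array in the group, called no gene at all (limma, adjusted p = 0.261 for both members without dox+TCP replicate 1 and 0.234 without dox+TCP replicate 2), so they give sizes rather than a check of the calls. Without either dox array, which leaves the spread to the dox+TCP arrays alone, 5936 genes were called, among them 3 members. The calls were also lost where bright local backgrounds were left as read (adjusted p = 0.598 for Vegfa and 0.660 for Vegfc by limma), a setting that called 0 genes, with 1908 at an unadjusted p under 0.05.

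Vegfa has 2 more probes, and they gave smaller ratios of the same sign. The probe at chr17:44154831-44154890 (mm7) read 0.58 and 0.65 with dox and 0.88 and 0.94 with dox+TCP. The probe at chr17:44146842-44146901 read 0.91 and 0.86 with dox and 1.12 and 0.99 with dox+TCP. In a fit over single probes all 3, including the brightest at chr17:44147967-44148026, were called higher with dox+TCP (limma, adjusted p of 0.0179 to 0.0197). The difference between dox+TCP and dox was 0.68 at the brightest probe but 0.30 and 0.18 at the others, so its size depends on the probe.

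Vegfb, a ligand of Flt1 tied to heart and fat metabolism, showed no stable direction with dox. Its ratios were -0.44 and 0.28 on the dox arrays and 0.34 and 0.85 on the dox+TCP arrays. The means were -0.077 ± 0.24 (SE, n = 2) with dox and 0.60 ± 0.24 (SE, n = 2) with dox+TCP, which did not pass (limma, adjusted p = 0.189). With the replicate number as a block, which also sets apart the shared slide, the adjusted p was 0.034. A second probe gave -0.42 and 0.47 with dox and 0.25 and 0.36 with dox+TCP, so that its groups overlapped where those of the first probe did not.

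Pgf, the placental growth factor, lay on opposite sides of the reference in the 2 groups. The ratios were -0.23 and -0.26 with dox and 0.34 and 0.34 with dox+TCP. The means were -0.24 ± 0.075 (SE, n = 2) and 0.34 ± 0.075 (SE, n = 2), and the latter missed the threshold (limma, adjusted p = 0.0634). Under median centring the dox mean was 0.026, on the other side of 0, and the adjusted p with dox+TCP was 0.025. The position of dox samples below the reference therefore depends on the scaling, while the difference between the groups stayed between 0.19 and 0.70 in all alternatives. In single channels the treated level was 7.66 and 8.17 log2 units with dox and 8.24 and 8.63 with dox+TCP, and the reference level was 7.89 and 8.43 beside dox and 7.90 and 8.29 beside dox+TCP. Second replicates were the higher ones in both channels, and the ratio of each array removed that offset. The Pgf probe (NM_008827) is placed at chr12:83167223-83169225 in mm7, minus strand.

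**Figure D2:**
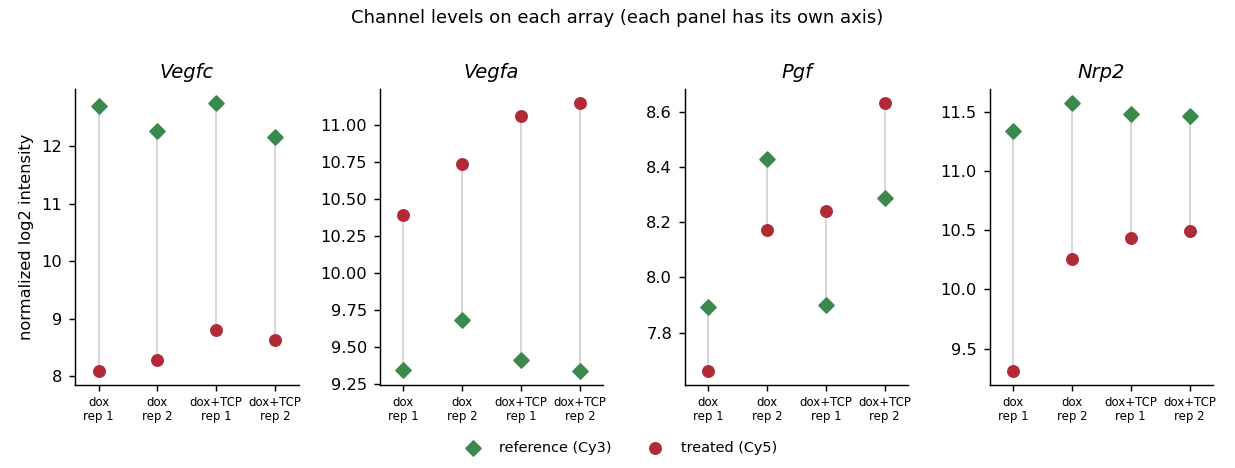
Normalized log2 intensity of the reference (Cy3, green diamonds) and of treated cells (Cy5, red circles) for Vegfc, Vegfa, Pgf and Nrp2 on each array, with a grey line joining both channels of an array; each panel has its own vertical axis, and levels are not comparable between genes. For Vegfc the reference is lower on both second replicates (12.27 and 12.17) than on the first (12.70 and 12.76), and for Pgf the treated sample lies below the reference with dox and above it with dox+TCP.

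Flt1, which binds Vegfa, Vegfb and Pgf, was above the reference on all 4 arrays, as Vegfa was. Its brightest probe gave 0.97 and 0.32 on the dox arrays and 0.32 and 0.40 on the dox+TCP arrays. The means were 0.64 ± 0.18 (SE, n = 2) with dox and 0.36 ± 0.18 (SE, n = 2) with dox+TCP, which did not pass (limma, adjusted p = 0.273). The dox mean rests on replicate 1, since the second replicate matched the dox+TCP arrays. A second probe for the NM_010228 transcript read 0.89 and 0.52 with dox and 0.46 and 0.59 with dox+TCP. A probe for BC029674 read 0.70 and -0.076 with dox and 0.34 and 0.036 with dox+TCP, and one for AK005502 lay between -0.019 and 0.24. The probes therefore differed in how far they lay above the reference, and a probe for AK084177 did not pass the filter on dim probes.

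Kdr, the main signalling receptor, differed little from the reference. Its probe with 10 spots gave -0.19 and -0.13 with dox and -0.17 and -0.088 with dox+TCP. The mean with dox+TCP was -0.13 ± 0.079 (SE, n = 2; limma, adjusted p = 0.348), and it was 0.067 under median centring, so no direction can be given. Another Kdr probe with 10 spots, for AK054510, was not well above background on any array. Flt4, the receptor for Vegfc, read -0.033 and -0.11 with dox and -0.041 and 0.11 with dox+TCP. Its mean with dox+TCP was 0.033 ± 0.086 (SE, n = 2; limma, adjusted p = 0.826). The probe of Flt4 was well above background in both channels of every array, but dim, with raw Cy3 signals of 58.5 to 114.

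The 2 co-receptors differed from each other. Nrp1 read -0.11 and 0.16 with dox and -0.019 and -0.049 with dox+TCP at its only tested probe, for AK040447. Its mean with dox+TCP was -0.034 ± 0.10 (SE, n = 2; limma, adjusted p = 0.852), and 2 probes for its NM_008737 transcript were too dim to test. Nrp2, which partners Flt4 in lymphatic endothelium, was below the reference on every array. Its brightest probe, for BC057028 (chr1:63059217-63059276, mm7), gave -2.03 and -1.32 with dox and -1.05 and -0.98 with dox+TCP. The means were -1.68 ± 0.20 (SE, n = 2), 3.20-fold lower, and -1.01 ± 0.20 (SE, n = 2), 2.02-fold lower.

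For Nrp2 the fall with dox+TCP lay at the edge of the threshold (limma, adjusted p = 0.0505). It was called when the spread came from the dox+TCP arrays alone, which leaving out either dox array amounts to (adjusted p = 0.012), with a replicate block (adjusted p = 0.029), with an offset of 16 (adjusted p = 0.044) and with the strict filter on dim probes (adjusted p = 0.049). The range over the alternatives was 0.0122 to 0.692, with the same direction in each. A second Nrp2 probe, for NM_010939 (chr1:63056657-63056716, mm7), did not fall: it read 0.23 and 0.22 with dox and 0.071 and 0.16 with dox+TCP. It was dim, with the reference well above background on 1 of 4 arrays. The fall of Nrp2 is therefore a fall at the BC057028 probe. Its reference level was 11.34 and 11.58 log2 units beside dox and 11.48 and 11.47 beside dox+TCP, while the treated level was 9.31 and 10.26 with dox and 10.44 and 10.49 with dox+TCP.

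**Figure D3:**
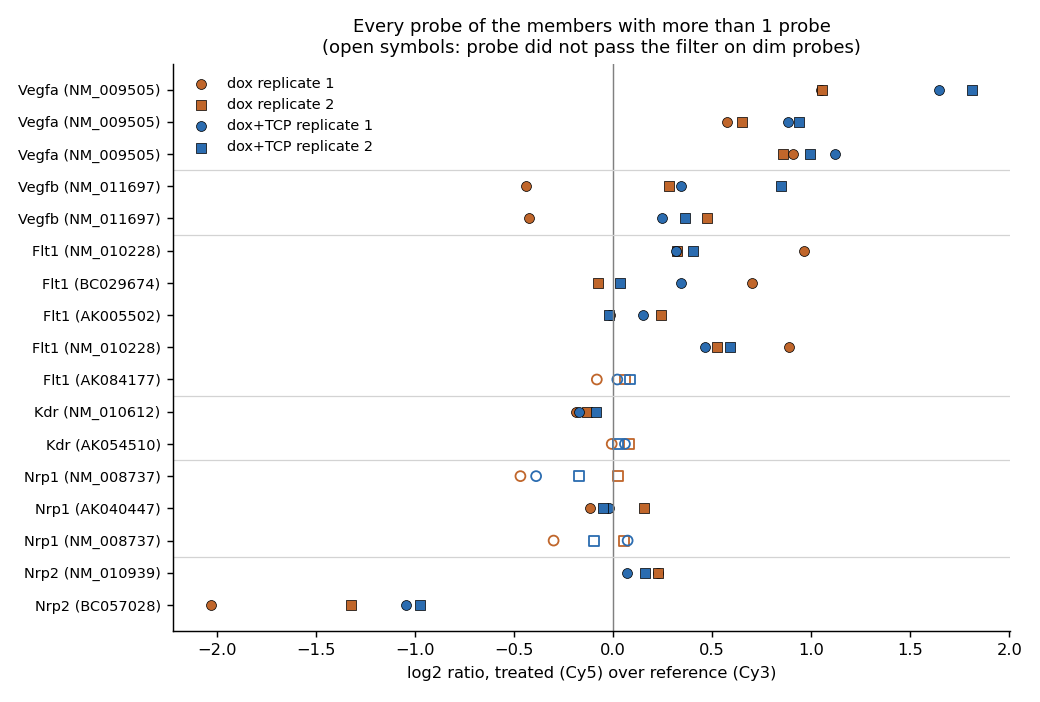
Log2 ratio of every probe of the 6 members that have more than 1 probe, on each array (orange dox, blue dox+TCP, circles replicate 1, squares replicate 2); open symbols are probes that did not pass the filter on dim probes, and names in brackets are the transcripts given in the array files. The 3 Vegfa probes all lie above 0.57, whereas the Nrp2 probes split, 1 between 0.071 and 0.23 and the other between -2.03 and -0.98.

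Adding TCP to doxycycline left no member past the adjusted threshold. No gene of the 21411 was called between dox+TCP and dox by limma (0%), while 946 (4.42%) had an unadjusted p under 0.05. Vegfa and Pgf were the 2 members among those 946. At its brightest probe Vegfa was higher with dox+TCP by 0.68 ± 0.12 (SE), 1.60-fold. The 95% interval was 0.33 to 1.03 (limma, unadjusted p = 0.00606, adjusted p = 0.996). In the fit over single probes its other probes gave 0.30 (limma, unadjusted p = 0.0670) and 0.18 (limma, unadjusted p = 0.226). The mean of the Vegfa probes gave 0.38 (limma, unadjusted p = 0.0214). Pgf was higher by 0.59 ± 0.11 (SE), 1.50-fold, with an interval of 0.28 to 0.89 (limma, unadjusted p = 0.00621, adjusted p = 0.996). Over all genes 2.40% had a difference at or above that of the brightest Vegfa probe, and 3.81% at or above that of Pgf. The 2 intervals are those of single genes, not widened for the number of genes tested.

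Vegfb, Vegfc and Nrp2 also read higher with dox+TCP in both samples at their brightest probes, with wider errors. The difference was 0.67 ± 0.34 (SE) for Vegfb, with an interval of -0.28 to 1.63, and 0.66 ± 0.28 (SE) for Nrp2, with an interval of -0.13 to 1.45. For Vegfc it was 0.56, given without a test because it subtracts the low dox values for which the gene was chosen. These 3 sizes rest on the first dox array: without dox replicate 1 they were 0.31 for Vegfb, 0.26 for Vegfc and 0.31 for Nrp2, and without dox replicate 2 they were 1.03, 0.87 and 1.02. With the replicate number as a block the unadjusted p was 0.0117 for Vegfb and 0.0433 for Nrp2 (limma, adjusted p of 0.655 and 0.656), so whether their intervals include 0 depends on the block. Vegfc has a single probe. The second Vegfb probe was higher with dox+TCP by 0.28 on average, but lower in the second pair, at 0.36 against 0.47. The dim Nrp2 probe was lower on both dox+TCP arrays than on both dox arrays, by 0.11 on average.

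At the brightest probes both dox+TCP arrays lay above both dox arrays in 5 of the 9 members, all 4 ligands and Nrp2, as they did in 20.2% of all genes. Vegfc counts among the 5 although its low dox values were known beforehand, and the other probes of Vegfb and Nrp2 would not count. In no member did both arrays lie below at that probe, as they did in 12.9% of all genes. The median difference at the brightest probes was 0.56 over the 9 members and 0.040 over all genes. That 0.56 is the value of Vegfc itself, so the median rests on the dox values for which Vegfc was chosen. With no member called, these counts describe the 4 arrays and do not show that TCP acts on the ligands.

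Within the slide shared by both replicate 1 arrays the differences were 0.60 for Vegfa, 0.78 for Vegfb, 0.66 for Vegfc, 0.57 for Pgf and 0.98 for Nrp2. Between the second replicates, on separate slides, they were 0.76, 0.56, 0.47, 0.60 and 0.35 in the same order. That the ligands and Nrp2 read higher with dox+TCP in both pairs follows from the separation of the arrays given above. The pairs therefore add sizes only. For Vegfc and Vegfa the averaged reference beside dox+TCP lay 0.023 and 0.14 below that beside dox, while the averaged treated level was 0.54 higher for both. The remaining members had differences nearer to 0 or below it, with intervals that overlap those of the ligands; the members were not tested against each other. The difference was -0.28 ± 0.26 (SE) for Flt1, with -0.65 within the shared slide and 0.080 between second replicates, and 0.037 without dox replicate 1. For Kdr it was 0.030 ± 0.11, for Flt4 0.10 ± 0.12 and for Nrp1 -0.054 ± 0.15 (SE), with intervals that reach from -0.29 to 0.35, -0.24 to 0.45 and -0.47 to 0.36.

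**Figure D4:**
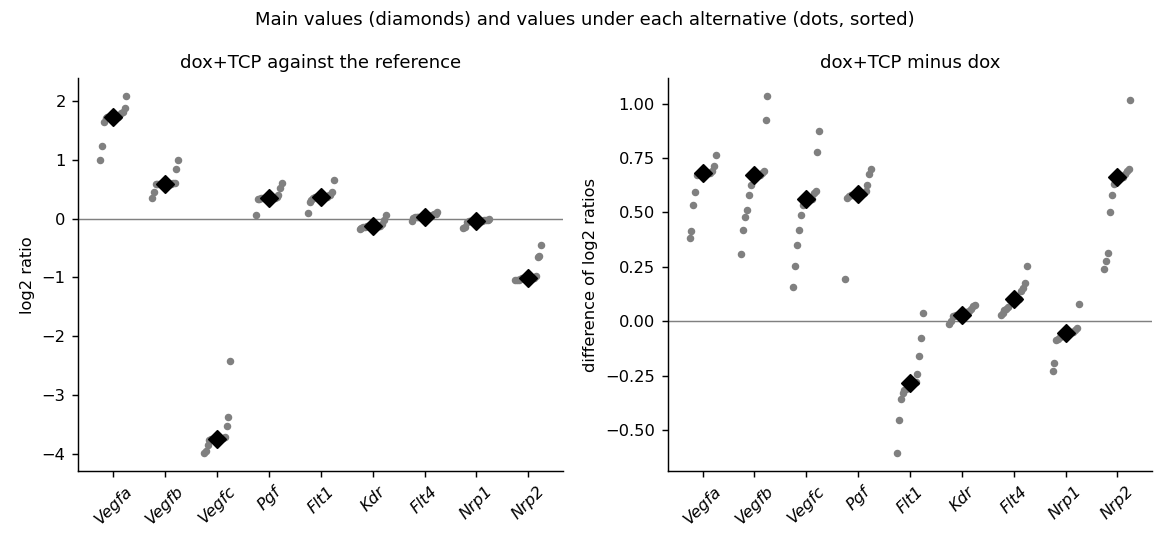
Main value (black diamond) and value under each alternative way of processing (grey dots, sorted from low to high) for each member; the left panel shows the log2 ratio of dox+TCP to the reference, the right panel the difference of log2 ratios between dox+TCP and dox. In the left panel Vegfa stays between 0.99 and 2.08 and Vegfc between -3.99 and -2.42; in the right panel the ligands and Nrp2 stay above 0.

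The genes that work with these members were taken as lists by role, and the counts that follow are for dox+TCP against the reference. In that comparison 7.31% of all genes were called higher and 8.09% lower. Of 11 measured genes that include the further ligand Vegfd and the proteins that mature or hold ligands, 1 was called higher and none lower, with a median of 0.014 against 0.033 over all genes. Vegfd, the second ligand of Flt4, had a mean of -0.060 (limma, adjusted p = 0.771), unlike Vegfc. Furin, a protease that cuts the Vegfc precursor, was the gene called higher, at 0.78 (limma, adjusted p = 0.0499), just inside the threshold. Ccbe1, which helps to activate Vegfc, was at -0.39 and just outside it (limma, adjusted p = 0.0504), and the protease Adamts3 was at 0.014. Of 13 measured semaphorins, plexins and other partners of neuropilins and VEGF receptors, Itgb3 was called, at 0.67, and the median was 0.13. Sema3f, a ligand of Nrp2, stood at 0.13 (limma, adjusted p = 0.550).

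Below the receptors, 2 of 35 measured signalling genes were called higher and 3 lower, with a median of -0.15; 5 of 35 is close to the 15.4% called over all genes and is no result about the pathway. The 2 were Sos1, an exchange factor for Ras, at 0.68, and Rcan1, a calcineurin inhibitor that VEGF induces in endothelium, at 1.06. Rac1, Map2k2 and Hspb1 were lower, at -0.64, -0.60 and -0.60. Plcg1, which couples Kdr to protein kinase C, was at -0.31 and not called. In the angiopoietin and Notch list, which guides vessel sprouting next to VEGF, 3 of 11 measured genes were called lower and none higher. Over all genes 8.09% were called lower. The 3 were Jag1 at -1.04, Notch4 at -1.35 and Eng at -1.23. Tek, Angpt2 and Dll4 were not called, at -0.24, -0.49 and -0.0015.

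Vegfa is a textbook target of hypoxia-inducible factors, so their genes and other targets were read beside it. Of 10 measured genes of oxygen sensing 4 were called lower and none higher, where 8.09% of all genes were called lower and 7.31% higher. The 4 were Epas1, which encodes an alpha subunit of these factors, at -1.52, Arnt2 at -0.62, Egln2 at -0.56 and Hif1an at -0.70. Hif1a was at -0.091, and its dox arrays disagreed, at 0.30 and -1.11, while Vhl was at 0.25; neither was called. Of 19 measured targets 5 were called higher and 4 lower, with a median of 0.12. Pfkfb3 at 1.80, the glucose transporter Slc2a1 at 1.82, Bnip3 at 1.50, P4ha2 at 1.22 and Ddit4 at 0.65 were higher with Vegfa. Eno1 at -1.13, Ankrd37 at -0.92, Ldha at -0.77 and Hk2 at -0.72 were lower. The targets therefore moved in both directions, and the rise of Vegfa was shared by some of them only. Their part in the Vegfa value was not tested.

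**Figure D5:**
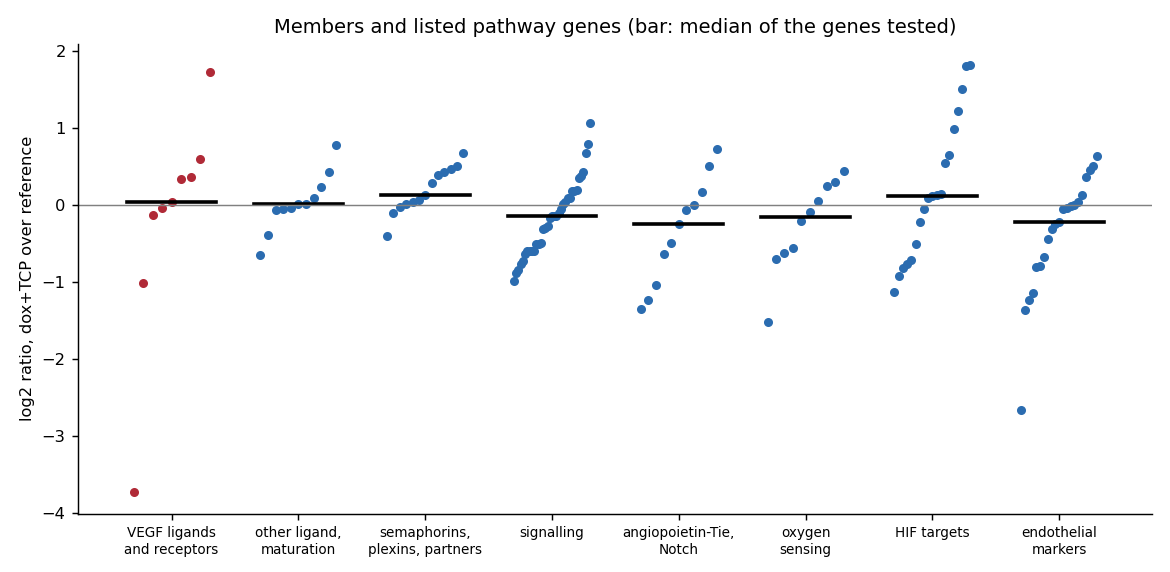
Log2 ratio of dox+TCP to the reference (group mean) for the 9 VEGF genes (red) and for the measured genes of 7 lists (blue), sorted within each list, with a black bar at the median. The VEGF genes span from -3.74 for Vegfc to 1.73 for Vegfa around a median of 0.033, and the medians of the lists lie between -0.24 and 0.13.

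Markers of other cells were read for the same arrays, since VEGF receptors belong to endothelium and Vegfc or Pgf can come from stromal or trophoblast cells. Of 21 measured endothelial markers 1 was called higher with dox+TCP (Pdpn, 0.46) and 3 lower (Robo4 at -2.67, Eng, and Pecam1 at -1.15, which embryonic stem cells also express). The defining genes Tie1 and Erg were not well above background, and Cdh5 was so on 3 of 4 arrays. The log2 of the summed intensity of this list was 12.84 and 13.42 with dox and 13.44 and 13.39 with dox+TCP, against 13.35 to 13.58 in the references. Of 17 measured fibroblast markers, which would show feeder cells, Pdgfrb was called higher at 1.15 and Thy1 lower at -1.12, and the summed level was 12.77 to 13.53 in treated cells and 12.84 to 13.76 in the references. Of 19 measured trophoblast markers H19 at 1.77 and Igf2 at 2.35 were called higher, and the median of the list was 1.29. Cdx2 read 2.87 and 0.17 on the dox+TCP arrays and was not called. Ctsq and Tpbpa were not well above background. The summed level was 18.70 to 19.30 in treated cells and 15.76 to 18.11 in the references. Over all genes 7.31% were called higher and 8.09% lower. The counts called in these marker lists lie near those shares and are by themselves no result about cell types. The part of endothelial, fibroblast or trophoblast cells in the VEGF values was not tested.

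Among the 5 genes whose 4 ratios lay nearest to those of Vegfc, by Euclidean distance over the 4 arrays, were Stmn2 (0.47), Calca (0.70), Tdh (0.79) and Jam2 (1.06). Stmn2 encodes a stathmin of neurons, Calca calcitonin and its related peptide, Tdh the mitochondrial threonine dehydrogenase and Jam2 a junctional adhesion molecule. Stmn2 read -4.26 and -4.09 with dox and -3.79 and -3.78 with dox+TCP. These genes were picked for ratios close to those of Vegfc, so the likeness follows from the choice. The distance is a description over 4 arrays that share a reference.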

How the data were processed

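Spot and background intensities are linear scanner values from Agilent Feature Extraction 10.1.1.1 (array design 014868, annotation on mm7, NCBI35), per the file headers. That software also wrote log10 ratios after its own background subtraction and dye normalization, per the file headers, and the authors' deposited series matrix equals these within 0.005 in log10. For other steps of the submitters, nothing is stated in the labels.

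The 1639 control spots were left out. A local background above 2 times its array median (11 to 112 per array and channel) was replaced by the median. limma 3.58.1 in R 4.3.3 applied normexp (offset 50) and loess within arrays, without the 119 to 176 outlier spots per array, and spots of a probe were averaged. The filter kept 31114 probes for which a share of at least 0.5 of the spots was well above background in Cy5 on both arrays of a group, or in Cy3 on all 4. The brightest such probe stood for its gene. RefSeq symbols (GRCm38.p6) were assigned to 22951 probes through accessions, 6659 through symbols and 3108 through synonyms; 8456 kept the name in the array files. 1 probe under an older synonym of Nrp2 was not counted as a member. limma's eBayes test was two-sided, with 2 residual and 1.79 prior degrees of freedom, and the code was tested on simulated data.

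The members, gene lists and tests were chosen with earlier results of these data known. Besides all members and Pou5f1, genes were named by role from the lists, together with those called in the VEGF, oxygen, target and endothelial lists, which were singled out after their values were seen. Plxnd1 has no probe by this name. 1 gene that the rule for the nearest genes takes is not reported here. Levels in single channels (Aquantile between arrays), the fit over single probes and the differences within a slide were added after seeing the data. The other alternatives were the background limit and correction, offset, median centring, the scanner's ratios, filters, probe means, a replicate block, the samples in the fit and leaving out each array.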

Additional observations from a re-analysis of the deposited data

Results flagged for a closer look

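The reference level of Vegfb had 1 array apart from the other 3: dox+TCP replicate 2 read 11.76 log2 units against 11.53 to 11.57, and that gap makes up 0.833 of the whole range. The reference level of Kdr was likewise highest on dox+TCP replicate 2, at 8.12 against 7.53 to 7.63, with a gap of 0.832 of the range. That array was on a slide of its own and scanned on another day. The test of gaps that singled them out picks about 1 in 20 groups by chance, and 9 reference levels were looked at. Pgf was singled out because both dox arrays lay below the reference and both dox+TCP arrays above it; the difference was 0.587, with an unadjusted p of 0.00621 by limma and an adjusted p of 0.996, so it failed the correction over all genes.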

How the results depend on the processing

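Vegfa, Vegfc and Nrp2 kept their directions against the reference in all 16 alternatives with dox+TCP, 3 of which (the dox+TCP arrays alone and leaving out either dox array) are the same fit there. The number of genes called there, 3297 in the main processing, was 0 with bright backgrounds as read, 5109 under median centring, 5936 with only the dox+TCP arrays in the fit and 0 to 5936 when each array was left out in turn. The 2 called members became 0 with backgrounds as read and 0 to 3 when each array was left out. With 2 pairs the replicate numbers cannot be shown to pair the samples; deviations of same-numbered arrays correlated at 0.47 over genes. With the replicate number as a block 5140 genes and 4 members were called against the reference, and still 0 genes between dox+TCP and dox. A random slide effect could not be fitted. Between dox+TCP and dox no setting called a gene. Values near 0 changed sign: Kdr with dox+TCP was 0.067 under median centring, and leaving out each array in turn gave -0.041 to 0.11 for Flt4 against the reference and, for dox+TCP minus dox, -0.61 to 0.037 for Flt1, -0.012 to 0.072 for Kdr and -0.19 to 0.081 for Nrp1. The cause of these changes was not tested, except that the reduced fits rest on fewer arrays. Differences of the dimmest members, Flt4 and Nrp1, are limited by signal close to background.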
